A study of Mus musculus with 30 samples.

Results

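MHC class II and its invariant chain were followed through 3 genes, of 15096 with a named probe, in RNA from mammary carcinomas of mice with a c-Myc transgene. H2-Aa and H2-Ab1 encode the alpha and beta chains of the mouse class II molecule I-A, and Cd74 encodes the invariant chain. The members were fixed by name, as all probes that the platform annotation gives to 1 of these symbols alone. There were 4 such probes among 22800, with 2 for H2-Aa and 1 each for H2-Ab1 and Cd74. The probe of H2-Ab1, the probe of Cd74 and 1 of the H2-Aa probes passed the filter on missing values. The other H2-Aa probe had values on 22 of 30 arrays and is given beside the first.

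Class II molecules hold peptides from material taken up by the cell and show them to CD4+ T cells. The invariant chain fills the groove of a newly made class II molecule and leads it to endosomes, where cathepsins cut the chain down to a short peptide. The editor H2-M, made of H2-DMa and a H2-DMb chain, then exchanges that peptide for others. Dendritic cells, macrophages and B cells carry class II constitutively. Epithelial cells, those of the mammary gland included, can turn it on under interferon gamma, which acts through the co-activator Ciita.

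The series held 30 arrays with 2 channels each. Each of 15 total RNA extracts of these carcinomas lay on 2 arrays, taking channel 1 on the first and channel 2 on the second, beside 1 common RNA of unstated make-up. Extract codes begin with CA02 and are given here by what follows it, a number and a letter such as 579-D. Number 579 stands on 5 extracts, number 546 on 2 and 8 further numbers on 1 each. The labels do not state what number and letter mark or whether different animals gave the extracts; the p-values therefore speak only of the spread among these extracts, a spread that can be technical in part. Both arrays of 550-A and 561-B were described under tumour progression, both arrays of 12 extracts under a transition from epithelium to mesenchyme, and 595-A had 1 array under each. All extracts share the Myc transgene, with no carcinoma or gland without it among them. The transgene's promoter, the strain and the age are unstated.

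Values are log2 ratios of the 2 channels, turned so that all arrays run the same way, and the 2 arrays of an extract were averaged. The labels do not settle which RNA was the numerator. The Myc probe averaged 3.16 ± 0.11 (SE, n = 15 extracts) and was positive in 15 of 15, so positive values are called the Myc side; that this side means more RNA in the carcinoma than in the common RNA is likely from the transgene, but not shown. "High" and "low" below mean nearer to or farther from that side. Levels of different probes were not set against each other. A ratio in bulk RNA cannot tell fewer cells of a type from less RNA per cell.

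Arrays held from 13434 to 21991 values, and the number of arrays limits the precision. Extracts 546-A and 548-A each had an array with few values: 4021 of the 12888 probes kept rested on a single array in 546-A, and 3000 did so in 548-A. Also given without 546-A and 548-A are the members' means against the common RNA and the H2-Aa test between extracts. So are the counts of class II regulators, endosomal proteases and class I genes that differed between extracts. The labelled tissue was checked on 15 measured epithelial markers, among which 14 were called toward the Myc probe and 0 away from it in the test against the common RNA described below. Of all probes kept, 30.4% and 16.9% were so called.

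Promoters are printed for a member, H2-Aa, for H2-DMb1, whose levels followed the members, and for H2-Eb1, for which no relation passed, as described further on. A conserved X box and Y box lie upstream of class II genes and bind the factors RFX and NF-Y. The 150 bases before the annotated start are shown in RefSeq's sequence of build GRCm38.p6, 5′ to 3′ on the gene's strand, for H2-Aa (chr17:34287824-34287973, minus strand), H2-DMb1 (chr17:34153041-34153190, plus strand) and H2-Eb1 (chr17:34305717-34305866, plus strand). Capitals mark matches to CTNGNAACT, letters chosen here for the X box, and to TGATTGG, the Y box with its inverted CCAAT.
H2-Aa: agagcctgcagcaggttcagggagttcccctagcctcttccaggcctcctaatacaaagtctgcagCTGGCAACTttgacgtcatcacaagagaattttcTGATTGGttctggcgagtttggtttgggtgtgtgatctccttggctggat
H2-DMb1: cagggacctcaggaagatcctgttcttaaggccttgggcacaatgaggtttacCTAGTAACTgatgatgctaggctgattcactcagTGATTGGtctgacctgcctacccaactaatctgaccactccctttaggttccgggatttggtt
H2-Eb1: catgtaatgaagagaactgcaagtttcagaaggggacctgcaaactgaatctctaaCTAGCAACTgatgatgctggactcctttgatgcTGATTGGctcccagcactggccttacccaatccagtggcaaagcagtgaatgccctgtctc

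Both motifs were searched on both strands and do not overlap. The X match was followed by the Y match on the same strand in these 3 windows, with 25 bases between them in H2-Aa, 25 in H2-DMb1 and 24 in H2-Eb1. They were the only 3 with both matches among 9 windows of class II genes in the table: those of H2-Oa, H2-Ob, H2-DMb2 and H2-Eb2 held the Y letters alone, and both windows of H2-DMa, which followed the members, held neither. Among 32851 promoters cut to the same length, 2% held the X letters, 5.71% the Y letters and 0.116% both. These matches are descriptions of letters, not sites shown to be bound. They follow from the letters chosen, and a window without a match can still hold an X box of other letters. H2-Ab1 had no entry in the table of promoters used here, and the Cd74 sequence is not printed.

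H2-Aa, the alpha chain, lay on the Myc side in 15 of 15 extracts. Its mean of the arrays was 5.22 in 550-A, 4.94 in 540-B, 3.67 in 546-B, 3.62 in 597-B, 3.27 in 579-D, 2.86 in 548-A, 2.59 in 546-A, 2.46 in 561-B, 2.13 in 567-B, 1.83 in 547-A, 1.79 in 579-A, 1.42 in 579-B, 1.06 in 595-A, 1.04 in 579-F and 0.72 in 579-E. The span of 4.50 on the log2 scale is a 22.6-fold range. Paired arrays lay 0.45 apart in the median of 14 extracts, but the arrays of 548-A read 5.49 and 0.22, and 546-A had 1 array only. The value of 548-A is therefore not a settled level.

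The other H2-Aa probe, measured in 13 extracts, ranked them much as the first, with r = 0.97 between the 2 probes as a description. It was again highest in 550-A, at 5.48, with 5.44 in 540-B, and lowest in 579-E, at -0.03. It had no value in 546-A or 548-A. Its own paired arrays were less close, with a median gap of 1.33 over 9 extracts.

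H2-Ab1, the beta chain, was on the Myc side in 14 of 15 extracts, in a graded order. Its mean was 3.80 in 540-B, 3.56 in 546-A, 3.32 in 579-D, 2.96 in 550-A, 2.28 in 597-B, 2.05 in 546-B, 1.22 in 567-B, 1.19 in 579-E, 0.99 in 561-B, 0.37 in 547-A, 0.25 in 579-A, 0.24 in 595-A, 0.14 in 579-F, 0.12 in 579-B and -0.01 in 548-A. The widest gap between paired arrays was in the extract at the top, 540-B, at 5.24 and 2.37. The lowest 6 extracts had means close to 0. Medians of single arrays ran from -0.94 to 1.14, so 0 need not mark equal amounts in carcinoma and common RNA. Some of these means joined arrays on different sides of 0, as in 579-F, at -0.66 and 0.93. In 548-A and 579-B both values were small whole-number ratios, such as dim spots can give.

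Cd74, the invariant chain, had the widest span and the closest paired arrays of the 3 probes that passed the filter. Its mean was 2.93 in 550-A, 2.47 in 540-B, 2.11 in 579-D, 1.85 in 546-A, 0.98 in 597-B, 0.50 in 546-B, -0.01 in 567-B, -0.52 in 579-B, -0.66 in 548-A, -0.999 in 561-B, -1.04 in 579-A, -1.26 in 579-E, -1.33 in 579-F, -1.42 in 547-A and -2.53 in 595-A. Thus Cd74 was positive in 6 extracts and negative in 9. The span of 5.46 on the log2 scale is a 44.0-fold range, and paired arrays lay 0.30 apart in the median. The exception was 579-F, with -2.71 and 0.05 on its arrays.

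**Figure D1:**
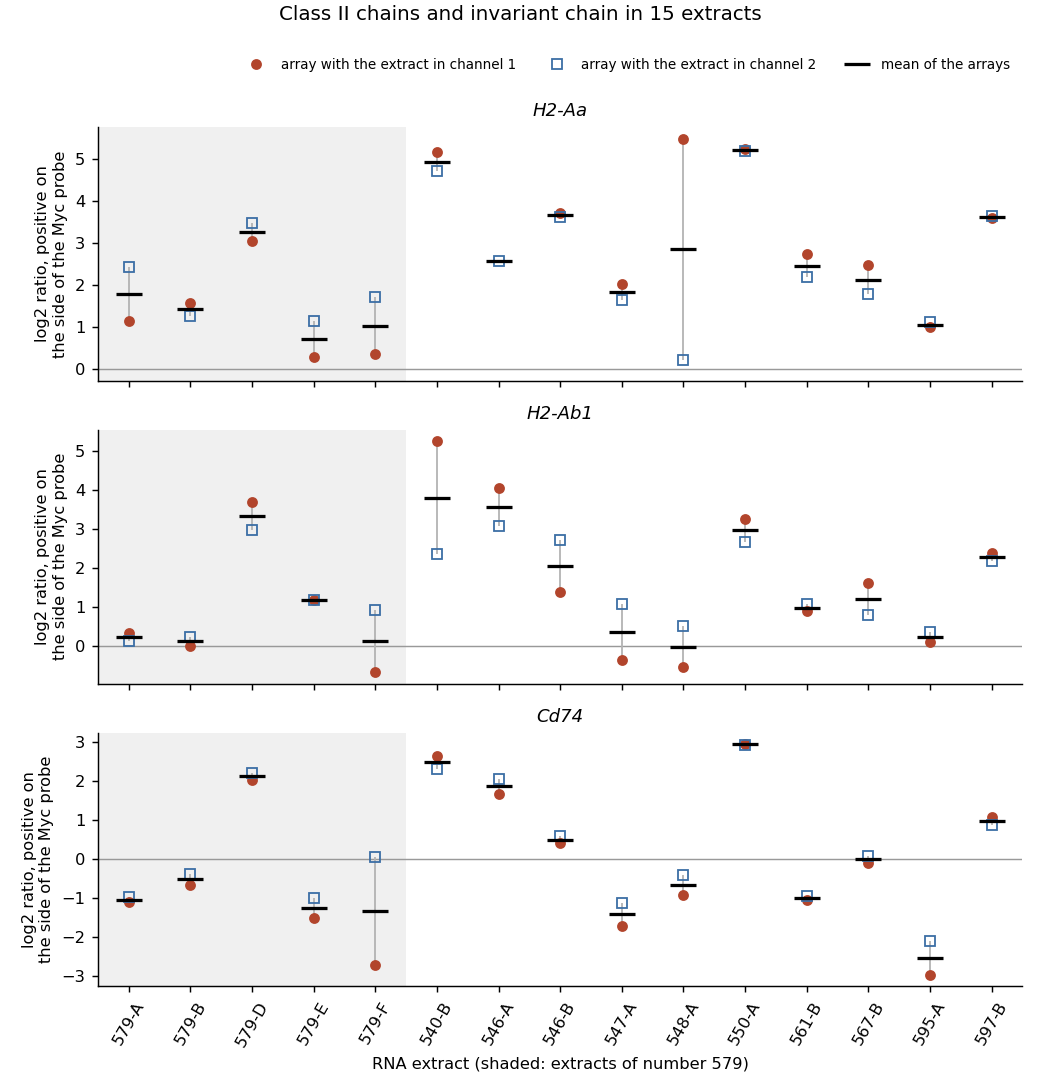
Log2 ratio (y axis, positive on the side of the Myc probe) of H2-Aa, H2-Ab1 and Cd74 in 15 extracts (x axis, extracts of number 579 shaded at the left), with the array carrying the extract in channel 1 as a filled circle, that in channel 2 as an open square and their mean as a bar. The arrays of 548-A lie far apart for H2-Aa (5.49 and 0.22), and those of 550-A read nearly the same for Cd74.

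Against the common RNA, the class II chains lay on the Myc side and the invariant chain did not differ from 0 beyond the spread between extracts. H2-Aa averaged 2.57 ± 0.32 (SE, n = 15), a 5.96-fold ratio (limma on extract means, Benjamini-Hochberg adjusted over all probes kept, adjusted p = 5.2e-06). H2-Ab1 averaged 1.50 ± 0.33, a 2.83-fold ratio, positive in 14 of 15 extracts (limma, adjusted p = 0.0011). Cd74 averaged 0.07 ± 0.39 (limma, adjusted p = 0.897). Its sign turned negative when array medians were subtracted (-0.02), with channel 1 alone (-0.13), without 546-A and 548-A (-0.01), and without any single one of 540-B, 546-A, 550-A or 579-D (lowest -0.13, without 550-A). Thus 2 of 3 members passed on the Myc side, where 30.4% of all probes kept did so, and 47.2% passed on either side. The median of all probes kept was 0.13.

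The invariant chain and the beta chain differed between extracts beyond array error, and the alpha chain did not pass. An F-test on the 30 arrays, with a coefficient per extract and a dye term and with limma's moderated variance, asked whether extracts differed by more than arrays of 1 RNA. Cd74 passed (F = 20.1, adjusted p = 2.9e-05), H2-Ab1 passed (F = 6.31, adjusted p = 0.0108) and H2-Aa did not (F = 3.42, adjusted p = 0.108). Over all probes kept, 6.22% passed. H2-Aa passed without 548-A, whose arrays disagreed (adjusted p = 2.8e-04). With single extracts left out in turn its adjusted p ran up to 0.268, and H2-Aa did not pass with values in at least 8 extracts (0.246). It passed with array medians subtracted (0.0349), with quantile normalization (0.0413) and with small whole-number ratios set to missing (0.00104). H2-Ab1 lost its call in that last setting (0.101), in which 9 of its 30 values were dropped; it passed in the other 6 settings and with each of the 15 extracts left out in turn.

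In the order of levels, most neighbours could not be told apart. A difference between 2 extracts had a 95% interval of ± 1.10 for Cd74, ± 1.65 for H2-Ab1 and ± 2.23 for H2-Aa, or ± 2.76 in the 14 H2-Aa pairs with 546-A, which had 1 array. Of 14 neighbouring pairs per gene, 1 had an interval above 0 for Cd74 (547-A above 595-A by 1.11, interval 0.01 to 2.21), and 0 had one for H2-Ab1 or H2-Aa. Over all 105 pairs of extracts the interval lay above 0 in 69 for Cd74, 49 for H2-Ab1 and 26 for H2-Aa. These intervals, and those between extracts of the same number below, were not adjusted for the number of pairs. Each pair was set higher minus lower by the same levels, so some intervals can lie above 0 by chance. The highest Cd74 extract, 550-A, was apart from 11 of the other 14, all but 540-B, 579-D and 546-A. For H2-Ab1 the top extract, 540-B, was apart from 10, all but 546-A, 579-D, 550-A and 597-B. For H2-Aa, 550-A was apart from 9.

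Extracts with the same number could differ. Among the 5 extracts of number 579, 579-D was above each of the other 4 for Cd74, by 2.63 (579-B, interval 1.53 to 3.74) to 3.44 (579-F, interval 2.33 to 4.54). The same held for H2-Ab1, where 579-D was above 579-E by 2.14 (interval 0.49 to 3.78) and above 579-B by 3.20 (interval 1.55 to 4.85). For H2-Aa its interval lay above 0 against 579-E and 579-F but not against 579-A or 579-B. Among the other 4 extracts of that number no interval left out 0 for any member. Within number 546, 546-A was above 546-B for Cd74 by 1.36 (interval 0.26 to 2.46), while for H2-Ab1 the difference of 1.52 had an interval of -0.13 to 3.17. For H2-Aa the order was turned, with 546-B above 546-A by 0.95 (interval -1.81 to 3.71).

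The 3 genes ranked the extracts alike. H2-Ab1 and Cd74 had r = 0.91 and rho = 0.77 over 15 extracts, with permutation p = 2.0e-05 for r, the lowest of the 3 pairs, and adjusted p = 6.0e-05. H2-Aa and Cd74 had r = 0.86 and rho = 0.85 (permutation p = 6.0e-05, adjusted p = 9.0e-05). H2-Aa and H2-Ab1 had r = 0.74 and rho = 0.66 (permutation p = 0.00156, adjusted p = 0.00156). The permutation p for rho, adjusted over the 3 pairs, was 0.00189, 0.00051 and 0.00931 in the same order.

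These relations did not rest on the extremes. Without the 2 extracts farthest from the median of the first gene, r was 0.88 for H2-Ab1 and Cd74, 0.74 for H2-Aa and Cd74 and 0.61 for H2-Aa and H2-Ab1. Over the 10 extracts of numbers other than 579 it was 0.92 (permutation p = 0.00051), 0.88 (0.00107) and 0.73 (0.0192). With 1 mean per extract number it was 0.92, 0.94 and 0.84. Extract 548-A stood off the relation of the alpha and beta chain, sixth for H2-Aa and last for H2-Ab1. The array medians, which the authors had not brought to 1 value, had r of -0.29 with H2-Aa, -0.17 with H2-Ab1 and -0.45 with Cd74 (permutation p = 0.297, 0.530 and 0.095).

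**Figure D2:**
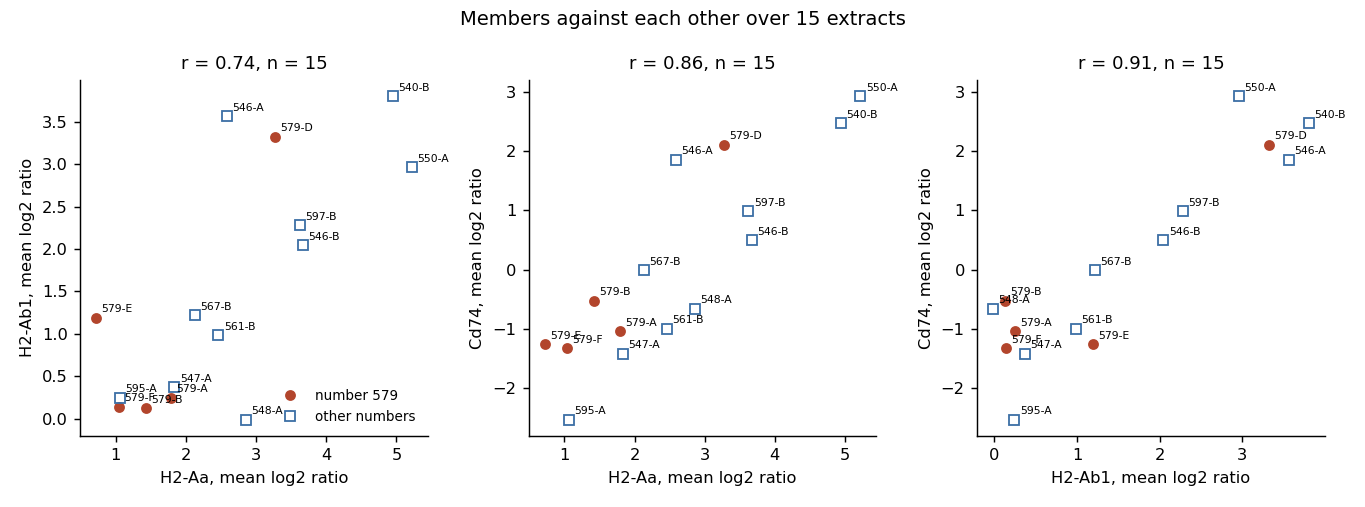
Each panel sets the mean log2 ratios of a pair of members against each other, with 1 point per extract, filled for number 579 and open for other numbers. Extracts 550-A, 540-B and 579-D lie at the upper right in all panels, and 595-A is lowest for Cd74 at -2.53.

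The other class II genes, none of which passed the filter, gave relations past the threshold for some and not for others. All 10 probes of the other chains, editors and Ciita were set against each member, giving 30 relations with p-values adjusted over them. The adjusted p-values given are those of r unless rho is named. H2-DMa, the alpha chain of the editor H2-M, followed H2-Ab1 (r = 0.86, rho = 0.79, permutation adjusted p = 0.0012), Cd74 (r = 0.82, rho = 0.88, adjusted p = 0.0025) and H2-Aa (r = 0.77, rho = 0.80, adjusted p = 0.0068) over 14 extracts. H2-DMb1, a beta chain of H2-M, did so as well, with r = 0.86 for H2-Ab1 (rho = 0.81, permutation adjusted p = 0.0025), 0.84 for Cd74 (rho = 0.86, adjusted p = 0.0025) and 0.72 for H2-Aa (rho = 0.72, adjusted p = 0.0235). Without the 2 extracts farthest from the member's median these r lay between 0.68 and 0.87, and over the 9 extracts of other numbers between 0.75 and 0.95.

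H2-DMa was highest in 579-D (2.26), 546-A (2.02), 550-A (1.85) and 540-B (1.73), the 4 extracts that also led for Cd74 and H2-Ab1, and lowest in 579-F (-3.12). H2-DMb1 was highest in 579-D (1.62), 550-A (1.34) and 546-A (1.31) and lowest in 595-A (-1.14). Paired arrays of H2-DMb1 had r = 0.11 over 14 extracts, so that its order of extracts was not repeatable between arrays; those of H2-DMa had r = 0.68 over 12. In the looser fit that kept probes with values in at least 8 extracts, added after seeing the data, neither passed between extracts (F-test with limma's moderated variance, adjusted p = 0.126 for H2-DMa and 0.714 for H2-DMb1).

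For the chains of the second class II molecule, I-E, no relation with a member passed. H2-Ea, its alpha chain, had r of -0.11, -0.11 and -0.06 with H2-Aa, H2-Ab1 and Cd74 over 14 extracts (permutation adjusted p = 0.978 for each), and of 0.36, 0.50 and 0.41 over the 9 of other numbers than 579. It was highest in 597-B (3.14) and 579-F (3.13) and lowest in 579-D (-0.41), an extract in which the I-A chains were high. H2-Eb1, its beta chain, had r of 0.11, 0.06 and 0.01 over 13 extracts (permutation adjusted p = 0.978 for each), and of -0.11, -0.17 and -0.31 over 8 of other numbers. Its promoter, printed above, holds matches to both motifs, as that of H2-Aa does. Paired arrays of H2-Ea and H2-Eb1 had r of 0.15 and -0.23, so that their order of extracts was not repeatable between arrays. Several mouse strains carry no working H2-Ea gene, and the strain here is unstated.

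Of the remaining probes, H2-Ob, a chain of the H2-M inhibitor H2-O, had r = 0.65 with Cd74 over 14 extracts (permutation adjusted p = 0.0391). Its rho of 0.64 with Cd74 did not pass (permutation adjusted p = 0.0562). With H2-Ab1 the rho of 0.69 passed and the r of 0.60 did not (permutation adjusted p = 0.0343 and 0.0620). The r with Cd74 was 0.39 without the 2 extracts farthest from the median of Cd74, and H2-Ob had a value on both arrays in 2 extracts only. The probes of H2-Oa, H2-DMb2, H2-Eb2 and Ciita gave 0 relations past the threshold. Ciita, the co-activator itself, was measured on 14 arrays, of which 10 were small whole-number ratios such as dim spots can give.

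**Figure D3:**
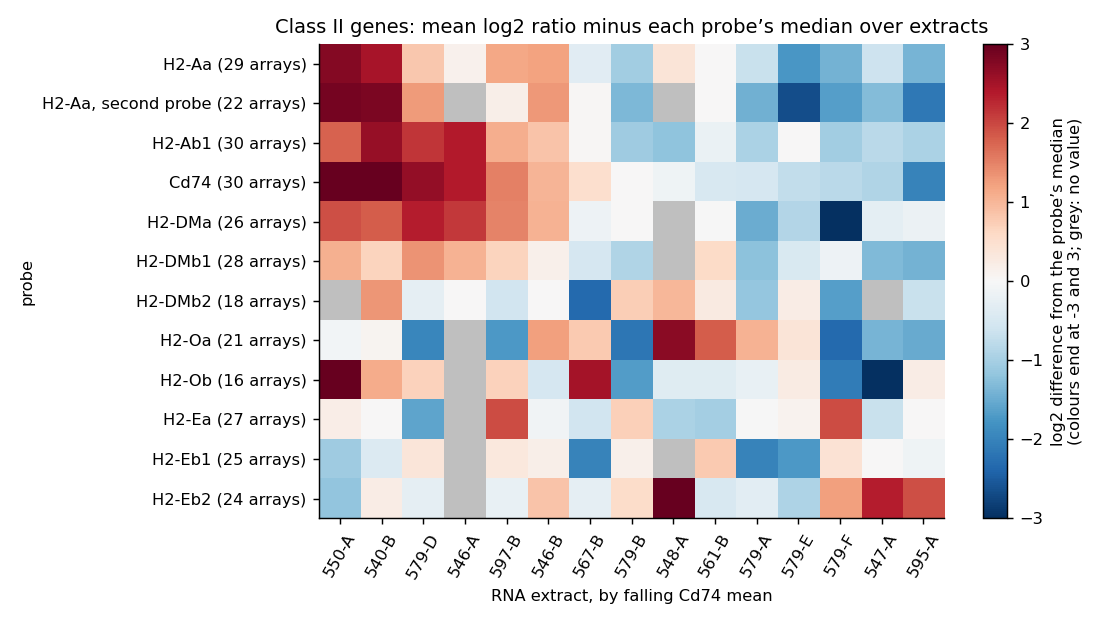
Colour gives each class II probe's mean log2 ratio minus its median over extracts, with probes as rows, extracts as columns by falling Cd74, and grey where there was no value. The upper rows, H2-Aa to H2-DMb1, are red in the left columns and blue in the right ones; the I-E chains H2-Ea and H2-Eb1 show no such order.

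The regulators of class II genes were measured for 15 of 20 listed genes. Set against the common RNA, 2 passed with positive and 3 with negative means, and 10 missed the threshold, a share of calls below the 47.2% of all probes; the list median was 0.05. Nfyc, a subunit of the Y box factor NF-Y, averaged 0.56 ± 0.11 (SE, n = 15; limma, adjusted p = 3.3e-04), and Rfxap, a subunit of the X box factor RFX, averaged 0.30 ± 0.12 (limma, adjusted p = 0.0416). Usf1, a basic helix-loop-helix factor, averaged -1.30 ± 0.18 and the interferon receptor kinases Jak1 and Jak2 averaged -0.67 ± 0.15 and -0.65 ± 0.22 (limma, adjusted p = 1.7e-05, 0.0013 and 0.0189).

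Between extracts 3 of the 15 regulators, Irf1, Jak1 and Jak2, passed, against 6.22% of all probes. Without 546-A and 548-A, 2 passed, Irf1 and Usf1, against 3.59%, so that only Irf1 passed in both fits. Irf1, an interferon-induced factor, was highest in 546-A (1.79) and lowest in 547-A (-1.33) (F-test with limma's moderated variance, adjusted p = 0.0046), and had r of 0.30, 0.64 and 0.60 with H2-Aa, H2-Ab1 and Cd74 as a description over 15 extracts. Spi1, the myeloid factor PU.1, had r of 0.40, 0.73 and 0.59 but did not itself pass between extracts (adjusted p = 0.389). The 5 measured subunits of RFX and NF-Y, Rfx5, Rfxap, Rfxank, Nfya and Nfyc, had r between -0.44 and 0.29 with the members.

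Among 10 measured genes of endosomal proteolysis, 2 passed with positive means and 1 with a negative mean, and 7 missed the threshold, again below the 47.2% of all probes called; the list median was 0.10. Ifi30, the thiol reductase of antigen processing, averaged 1.26 ± 0.12 and Ctsc, cathepsin C, 0.94 ± 0.17 (limma, adjusted p = 1.6e-07 and 1.8e-04, n = 15). Ctsl, cathepsin L, averaged -1.26 ± 0.23 (limma, adjusted p = 2.6e-04). Between extracts 4 of 10 passed, against 6.22% of all probes: Ctsc, Lgmn, Ctss and Ctsl, each highest in 546-A. Without 546-A and 548-A only Ctsl passed (F-test with limma's moderated variance, adjusted p = 0.0111). Ctss, cathepsin S, which trims the invariant chain in dendritic cells and B cells, ran from 1.51 in 546-A to -1.50 in 548-A and had r = 0.24 with Cd74, or 0.01 without those 2 extracts.

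At the cell surface the invariant chain is part of the receptor for the cytokine Mif, with Cd44 as its co-receptor. Cd44 was highest in 546-A (1.31) and 550-A (1.12), lowest in 547-A (-2.44), and passed between extracts (F-test with limma's moderated variance, adjusted p = 0.015), though not without 546-A and 548-A (0.0725). Its r over 15 extracts was 0.73 with Cd74, 0.71 with H2-Ab1 and 0.45 with H2-Aa. Mif had r of -0.64 with Cd74 and spanned only -0.67 to 0.42, without passing between extracts (adjusted p = 0.181). In that list of 3 measured genes, Cd44, with a negative mean of -0.81 ± 0.24, was the 1 gene called against the common RNA (limma, adjusted p = 0.0108). Of all probes kept, 47.2% were called on either side.

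Genes whose extracts were ordered most like each member were sought among 6137 genes with an SD over extracts of at least 0.5. Ccnd1, cyclin D1, was the one gene in the first 10 of all 3 members, with r of 0.83 with H2-Aa, 0.80 with H2-Ab1 and 0.84 with Cd74 over 15 extracts. It read 1.47 in 550-A and 0.18 in 540-B, was below 0 in all other extracts, and was lowest in 547-A (-1.89). For H2-Aa the next were Sfrp1 (0.78), a secreted Wnt binder, and Ttc21a (0.76). For H2-Ab1 the first were Tle2 (0.91), a co-repressor, and Fcgr2b (0.82), the inhibitory Fc receptor of B cells and myeloid cells. For Cd74, after Ccnd1, they were Tle2 (0.82), Ttc21a (0.81) and Dusp6 (0.80), a phosphatase that acts on ERK.

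Across these 6137 genes the 99th percentile of r was 0.56 for H2-Aa, 0.68 for H2-Ab1 and 0.62 for Cd74. Judged by the lower of the r with H2-Aa and H2-Ab1, the first 10 were Ccnd1 (0.80), Chl1 (0.71), Fn1 (0.70), Ttc21a (0.69), Dusp6 (0.68), Etv4 (0.68), Tle2 (0.68), Tiam2 (0.68), Ccng1 (0.66) and Tgfb1 (0.65). Dusp6 read 1.48 in 546-A, 1.31 in 550-A and 1.31 in 579-D, and -2.49 in 561-B. These r are the highest of many and are descriptions without a test. Of the genes named, Ccnd1, Fcgr2b, Dusp6, Fn1 and Ccng1 passed the F-test between extracts (adjusted p from 1.1e-05 to 0.033). Sfrp1, Ttc21a, Tle2, Chl1, Etv4, Tiam2 and Tgfb1 did not (adjusted p from 0.068 to 0.969). Their order of extracts was thus not shown to exceed array error. Sfrp1 was highest in 548-A, whose H2-Aa level is not settled.

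Markers of cells that carry class II were set beside the members as list means. Of 39 relations between a member and 1 of 13 lists, 0 passed after adjustment and 0 had an unadjusted permutation p under 0.05 for r, with 1 so for rho (H2-Ab1 with endothelial markers, rho = 0.56, permutation p = 0.031, adjusted p = 0.630). Values of r ran from -0.31 to 0.50, and the lowest adjusted p was 0.562. A p that misses the threshold does not show that the lists and the members were unrelated.

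**Figure D4:**
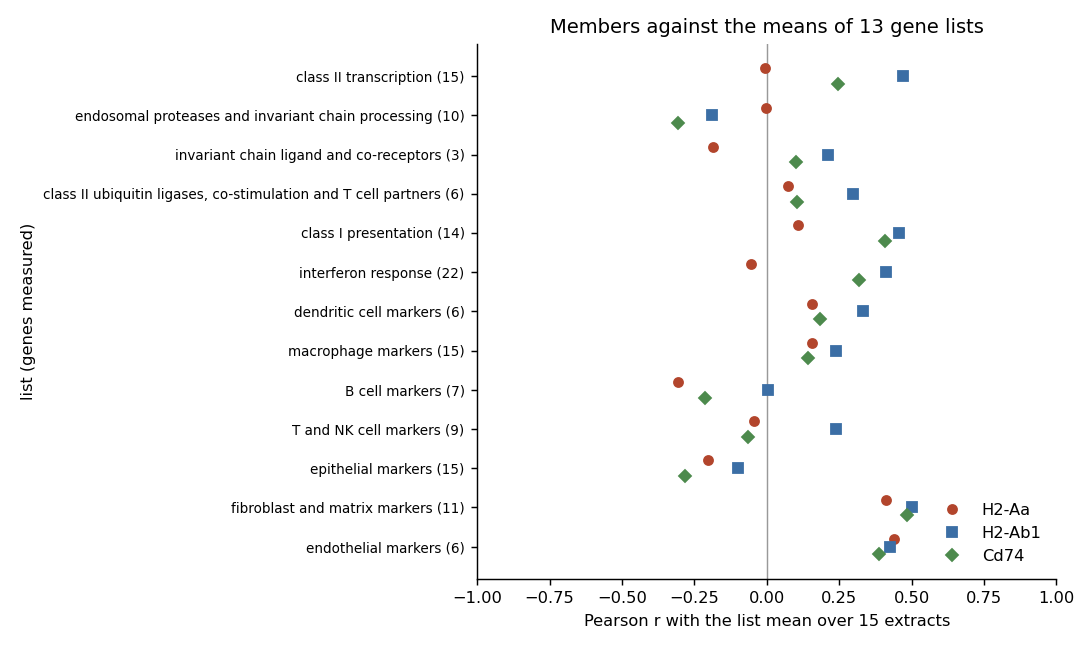
Pearson r over 15 extracts (x axis) of H2-Aa, H2-Ab1 and Cd74 with the mean of each of 13 gene lists (y axis, with the number of genes measured). All points lie between -0.31 and 0.50.

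Macrophage markers were measured for 15 of 20 genes, 10 called with positive and 3 with negative means, where 30.4% and 16.9% of all probes were, and a list median of 0.74. C1qc, a complement chain made by macrophages, averaged 2.91 ± 0.23, Fcgr3, a low-affinity Fc receptor, 2.20 ± 0.25 and Mpeg1, a pore protein of macrophages, 2.03 ± 0.23 (SE, n = 15; limma, adjusted p = 3.1e-08, 1.5e-06 and 1.6e-06). Marco, a scavenger receptor, was among those called negative, at -0.63 ± 0.22 (limma, adjusted p = 0.0229). Also called negative were Ptprc, the leukocyte marker CD45, at -2.40 ± 0.16 and Msr1, another scavenger receptor, at -1.12 ± 0.15 (limma, adjusted p = 2.2e-09 and 7.2e-06). Both were chosen after their values were seen. The list mean ran from -0.26 in 548-A to 1.26 in 546-A, and read 1.05 in 540-B, 0.63 in 550-A and -0.25 in 579-D, so that 579-D was high for the members and next to lowest for this list. Without 546-A and 548-A, which had an array with few values, that mean ran from -0.25 in 579-D to 1.05 in 540-B. The r of the list mean was 0.16, 0.24 and 0.14 with H2-Aa, H2-Ab1 and Cd74, and 0.23, -0.10 and -0.04 without 546-A and 548-A. The genes of the list differed in this: Mrc1, the mannose receptor, had r of 0.54, 0.67 and 0.60, Fcgr3 of 0.68, 0.54 and 0.51 and Ptprc of 0.54, 0.41 and 0.58. Mrc1, Fcgr3 and Ptprc did not themselves pass the F-test between extracts (adjusted p = 0.475, 0.441 and 0.470). Of the 15 genes 2 passed it, where 6.22% of all probes did. The r of C1qc and Mpeg1 lay between -0.05 and 0.04. Those of Lyz2, lysozyme, chosen after its values were seen, were -0.51, -0.39 and -0.51. Of the 15 genes, 8, 11 and 8 had r above 0 with H2-Aa, H2-Ab1 and Cd74.

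Dendritic cell markers gave 1 called with a positive and 1 with a negative mean of 6 measured, where 30.4% and 16.9% of all probes kept were so called. Itgax, the integrin CD11c, averaged 1.30 ± 0.34 and Fscn1, an actin bundler of mature dendritic cells, -1.76 ± 0.20 (SE, n = 15; limma, adjusted p = 0.0041 and 1.6e-06). B cell markers gave 0 positive and 1 negative of 7, and T and NK cell markers 1 positive and 2 negative of 9, beside the same shares of all probes. In the F-test between extracts 0 of 6, 1 of 7 and 0 of 9 passed, where 6.22% of all probes kept did. The list means ran from -0.83 to 0.90, from -1.46 to 0.51 and from -0.84 to 0.54. Without 546-A and 548-A the list means ran from -0.83 to 0.50, from -0.54 to 0.51 and from -0.47 to 0.54. As ratios to a common RNA these have no true 0, so absence of a cell type cannot be read from them, and the part of such cells in the members' differences was not tested.

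Class I presentation genes, which share interferon control with class II, were measured for 14 of 19, and 10 of them passed between extracts, where 6.22% of all probes did; 9 passed without 546-A and 548-A. B2m, the light chain of class I, read 1.73 in 546-A, 1.66 in 579-D and -0.93 in 550-A, and H2-D1, a class I heavy chain, read 2.80 in 579-D, 2.64 in 546-A and 0.36 in 550-A. The mean of 22 interferon response genes was 3.59 in 546-A and 1.90 in 579-D, but -0.49 in 540-B, its lowest, and -0.45 in 550-A, which were the 2 highest extracts for H2-Aa and Cd74. With Cd74 the interferon list had r = 0.32 and the class I list r = 0.41 over 15 extracts. Without 540-B and 550-A, the 2 extracts farthest from the median of Cd74, the values were 0.76 and 0.79. In other subsets they were low: 0.20 and 0.26 over the 10 extracts of numbers other than 579, 0.14 and 0.30 without 546-A and 548-A, and 0.00029 and 0.13 with 1 mean per extract number.

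Fibroblast and matrix genes showed another division. Their list mean was 1.11 in 546-A, 0.71 in 550-A and 0.60 in 540-B, the 3 highest extracts for that list, against -2.60 in 579-D, the lowest. Its r was 0.41 with H2-Aa, 0.50 with H2-Ab1 and 0.48 with Cd74 over 15 extracts, 0.58, 0.82 and 0.78 over the 10 extracts of other numbers than 579, and -0.04, 0.15 and 0.17 without the 2 extracts farthest from the member's median. Endothelial markers had r of 0.44, 0.42 and 0.39 over 15 extracts, 0.60, 0.75 and 0.66 over those 10, and 0.14, 0.25 and 0.12 without the 2 extremes. With 1 mean per extract number r was 0.73, 0.80 and 0.77 for the matrix list and 0.61, 0.82 and 0.70 for the endothelial list. Without 546-A and 548-A these were 0.51, 0.32 and 0.39, and 0.53, 0.37 and 0.39. Both relations thus depended on the extracts used, and neither had passed over all 15. Among the 4 extracts highest for Cd74, 550-A and 540-B thus came with high matrix genes and low interferon genes, 579-D with low matrix and high interferon genes, and 546-A with both lists high.

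Fgfr2, the receptor of fibroblast growth factors, was at 7.13 in 548-A, 6.99 in 597-B and 5.93 in 579-D and at most 0.90 elsewhere. The members were high in 579-D and 597-B, while 548-A was lowest of all for H2-Ab1 and at -0.66 for Cd74.

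Number 579 was the only number with more than 2 extracts and was compared with the other 10 extracts. H2-Aa averaged 1.65 ± 0.99 in the extracts of number 579 and 3.04 ± 1.33 in the others (SD, n = 5 and 10), a difference of -1.39 with a 95% interval of -2.70 to -0.08 (limma, adjusted p = 1.00). H2-Ab1 averaged 1.00 ± 1.37 in number 579 and 1.75 ± 1.39 in the others, a difference of -0.74 (interval -2.21 to 0.73). Cd74 averaged -0.41 ± 1.44 in number 579 and 0.31 ± 1.77 in the others, a difference of -0.72 (interval -2.48 to 1.04). Limma called 0 of 12888 probes (0%), with 460 (3.57%) at an unadjusted p under 0.05, and the groups overlapped for every member. Without 579-D the differences were -1.80 for H2-Aa, -1.32 for H2-Ab1 and -1.35 for Cd74, and none passed. The size of the H2-Aa difference depended on the channel, with -2.21 in channel 1 alone and -0.66 in channel 2 alone, and that of Cd74 was -0.43 without 550-A.

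No member passed the test of progression against transition, which had 2 extracts on 1 side. H2-Aa read 5.22 in 550-A and 2.46 in 561-B, against 2.49 ± 1.24 in the 12 transition extracts (SD), a difference of 1.35 (interval -0.59 to 3.29; limma, adjusted p = 1.00). H2-Ab1 read 2.96 and 0.99, against 1.52 ± 1.44, a difference of 0.45 (interval -1.67 to 2.57). Cd74 read 2.93 and -0.999, against 0.14 ± 1.42, a difference of 0.83 (interval -1.49 to 3.14). Limma called 1 of 12888 probes (0.00776%), with 525 (4.07%) at an unadjusted p under 0.05. The sign rested on 550-A: without it the differences were -0.03, -0.54 and -1.14 for H2-Aa, H2-Ab1 and Cd74, with 1 extract left under progression, which is assumed to vary like the others.

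**Figure D5:**
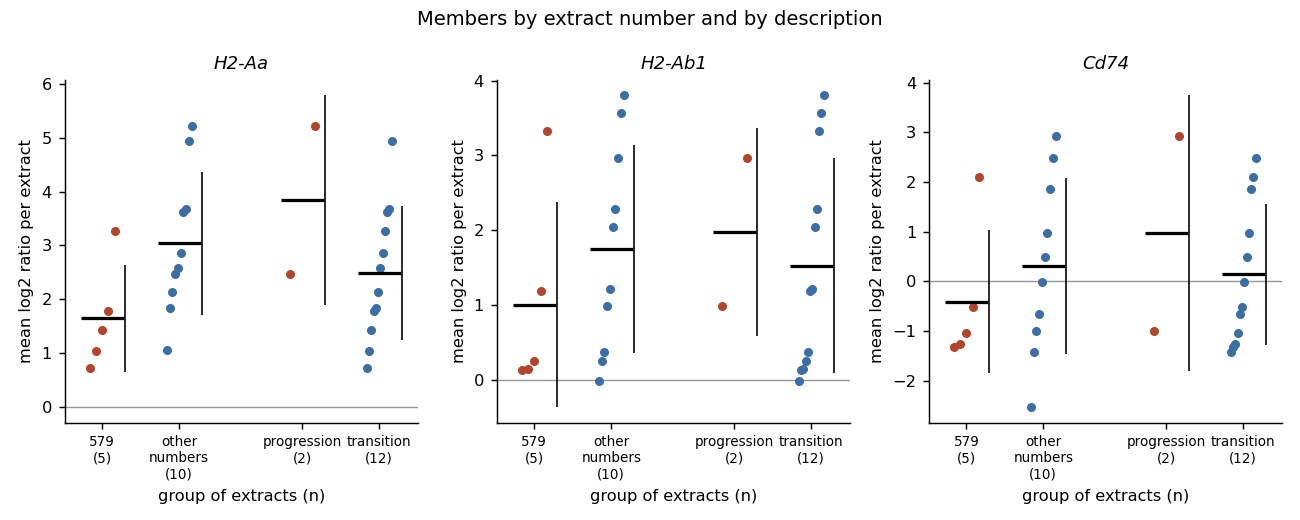
Mean log2 ratio per extract (y axis) of each member in the extracts of number 579 and of other numbers, and in those under progression and under the transition (x axis, with n). Points are extracts, horizontal bars means and vertical lines 1 SD to each side; the groups overlap in all panels, and 550-A is the upper point under progression.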

How the data were processed

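The authors deposited 1 table of log2 ratios for 30 arrays of 2 channels. The scale was inferred from the numbers, because no source used here names the scanner, the background correction or the normalization. The value 16.61, found 8839 times, stands for a missing one. Signs were turned on arrays with the extract in channel 2, and both arrays of an extract count as 1 replicate. Probes were kept with values on at least 24 of 30 arrays and in every extract (12888 of 22800). Names came from the platform annotation, 1 probe per gene, that with most arrays.

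Limma 3.58.1 (R 4.3.3) was fitted across all probes kept, with Benjamini-Hochberg adjustment and a threshold of 0.05, and was run on simulated data. The simulation drew each extract independently, so it cannot speak of extracts that share a number. Its changes between groups were larger than those of the members, so it cannot speak of differences as small as theirs. Correlations over extracts used two-sided permutation tests with 100000 resamples, for which the lowest p that can be given is 1.0e-05. Analyses in Python 3.11.15 used pandas 2.3.3, numpy 2.4.6 and matplotlib 3.10.9.

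Members and gene lists were chosen with earlier results of these data known. By rule the text may name every member, every gene of the class II chain, transcription and processing lists, the 5 genes of each other list with the largest SD, and the 10 genes most like each member; Irf1 and Spi1 are among the transcription list. Fgfr2, Lyz2, Ptprc and Msr1 were named after their values were seen. Alternatives were other scalings, single channels, other filters, a random block for extract number, and leaving out extracts.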

Additional observations from a re-analysis of the deposited data

Results flagged for a closer look

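Cd74 in extract 579-D, at 2.11, lay far from the other 4 extracts of number 579, the nearest of which was at -0.52. The gap of 2.63 was 0.766 of the range of 3.44, above Dixon's 95% critical value of 0.71 for 5 samples. Of 6 groups so examined, the 3 members in number 579 and in the other numbers, this was the 1 with such a value. Chance gives such a value in about 1 in 20 single groups, and so more often when 6 are examined. Both arrays of 579-D read alike, at 2.02 and 2.20.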

How the results depend on the processing

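The range over leaving out each extract in turn was 2.39 to 2.71 for H2-Aa and 1.33 to 1.61 for H2-Ab1 against the common RNA, both past the threshold throughout, and -0.13 to 0.26 for Cd74, which turned sign and never passed. Cd74 also turned negative with array medians subtracted (-0.0225), channel 1 alone (-0.13) and without 546-A and 548-A (-0.00904). Without 546-A and 548-A, H2-Aa averaged 2.55 and H2-Ab1 1.46, both past the threshold. Between extracts the adjusted p ranged from 2.8e-04 to 0.268 for H2-Aa, from 0.0040 to 0.0305 for H2-Ab1 and from 2.4e-07 to 2.3e-04 for Cd74 when 1 extract was left out. H2-Aa passed with array medians subtracted (0.0349), quantile normalization (0.0413), small whole-number ratios missing (0.00104) and without 546-A and 548-A (3.0e-04). H2-Aa did not pass with values in at least 8 extracts (0.246), and H2-Ab1 did not with small ratios missing (0.101). The cause was not tested. Progression minus transition ran from -0.0290 to 2.73 for H2-Aa, -0.54 to 1.44 for H2-Ab1 and -1.14 to 2.79 for Cd74, the lowest without 550-A. Number 579 minus the others stayed negative and passed in 0 settings, from -2.21 (channel 1) to -0.66 (channel 2) for H2-Aa, -1.32 to -0.51 for H2-Ab1 and -1.35 to -0.43 for Cd74. The r of the member pairs ran from 0.67 to 0.82, 0.81 to 0.90 and 0.89 to 0.92 with 1 extract left out, and all passed in every setting.

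Over all probes, 4047 rather than 6088 were called against the common RNA with values on all 30 arrays, where fewer were tested. Between extracts 516 rather than 801 were called with quantile normalization, 390 with values in at least 8 extracts, 463 without 546-A and 548-A and 364 with no dye term. The 1 probe called under progression became 0 with array medians subtracted, quantile normalization, either channel alone, all 30 arrays, at least 8 extracts, small ratios missing or without 546-A and 548-A, and from 0 to 4 with 1 extract left out. Two-channel arrays give no depth, and among the probes of the members dim spots limit that of H2-Ab1 most. No paired analysis was possible because the labels give no replicate numbers shared between groups. The filter of at least 8 extracts for differences between extracts and the member relations without number 579 were chosen after seeing the data.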
